A study of Mus musculus with 20 samples.

Results

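Orchiectomy was compared with sham operation in the livers of male mice kept under intermittent hypoxia, across every gene with enough counts to be tested. The comparison sets 5 orchiectomized mice (ORX_IH) against 5 sham-operated mice (Sham_IH), which are 10 of the 19 libraries in the deposited tables, and libraries were assigned by the operation and exposure in their labels. Orchiectomy removes the testes, the main source of testosterone. Intermittent hypoxia, a series of repeated drops in oxygen that is used to model sleep apnoea, was given to both groups for 2 weeks, so it is shared by the controls. Mice of both operations in normal air, 5 orchiectomized (ORX_Nx) and 4 sham operated (Sham_Nx), enter the same fit and serve for the comparison across exposures. The labels give no strain and no age. The removal of the testes takes away all testicular hormones, and the sham operation controls for surgery only.

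The adult mouse liver is one of the most sexually dimorphic organs. Testosterone acts in part on the brain and pituitary, where it sets growth hormone release to pulses. Pulsatile growth hormone activates the transcription factor STAT5 in hepatocytes in bursts, and male-biased genes such as the major urinary proteins, Cyp4a12 and Elovl3 depend on those bursts. A more continuous growth hormone pattern, typical of females, goes with expression of Cyp2b9, Cyp2a4, Sult3a1 and other female-biased genes.

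Each library held between 29.3 and 67.3 M estimated counts, with means of 48.7 M in Sham_IH and 54.5 M in ORX_IH. The detection floor, set at 3 counts, was 0.102 counts per 1 M counts (CPM) in the shallowest library. It allows for counting error alone. Of 36106 genes, 16164 were tested. Hepatocyte markers dominated both groups, and the 12 measured members summed to between 129990 and 136470 CPM in Sham_IH and between 123580 and 144180 CPM in ORX_IH. ORX_IH 1 and ORX_IH 2 also held skeletal muscle RNA. The muscle markers without Car3, which liver expresses itself, summed to 1604 CPM in ORX_IH 1 and 952 CPM in ORX_IH 2. In the other 3 ORX_IH libraries they summed to 14.9, 23.4 and 15.4 CPM, inside or just under the 17.6 to 32.9 CPM of Sham_IH. Outside the 10 libraries compared, Sham_Nx held muscle RNA too. The muscle gene Acta1 averaged 10.9 CPM there, against 0.415 CPM in ORX_Nx and 0.135 CPM in Sham_IH. Pancreatic enzyme genes summed to 1501 CPM in Sham_IH 5 and 266 CPM in ORX_IH 1, against 5.84 to 27.7 CPM in the remaining 8 libraries. The results below use all 10 libraries, and values without ORX_IH 1 and ORX_IH 2 are given for the main lists and for many of the named genes.

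After orchiectomy abundant male-biased genes fell, several of them to a few percent of their sham level, and female-biased genes rose, several of them from close to the detection floor. By edgeR's quasi-likelihood test with Benjamini-Hochberg adjustment, 465 genes (2.88%) passed an adjusted p of 0.05, of which 211 rose (1.31%) and 254 fell (1.57%). At least 2-fold changes made up 234 of them (1.45%). The 5 and 5 libraries did not overlap in 945 genes (5.85%), of which 448 were higher (2.77%) and 497 lower (3.07%) in ORX_IH. The genes that fell took between 8.62 and 11.7% of all counts in the Sham_IH libraries and between 4.13 and 5.23% in ORX_IH. The genes that rose took between 0.232 and 0.276% in Sham_IH and between 0.565 and 0.847% in ORX_IH. The split depended on the scaling of the libraries. With TMM scaling 45.4% of the calls were rises, and without scaling factors 85.5% of 971 calls were, where the median of all genes lay at 0.13 on the log2 scale.

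**Figure D1:**
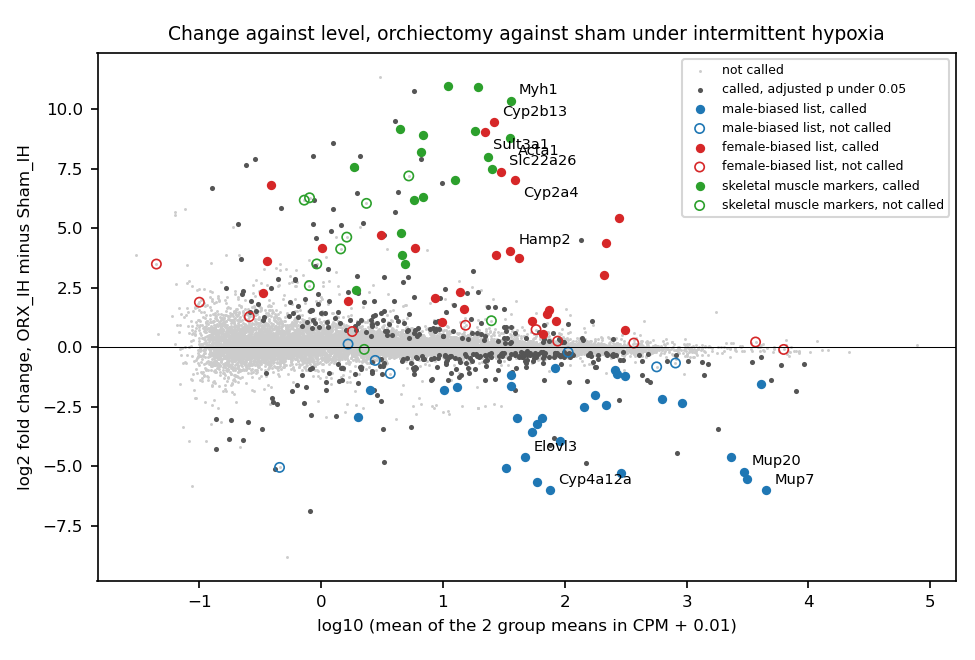
Log2 fold change of every tested gene, ORX_IH minus Sham_IH, against the log10 of the mean level of both groups in CPM. Filled colours mark called members of the male-biased, female-biased and skeletal muscle lists and open circles members not called. Mup7 and Mup20 stand at the lower right, high in level with falls of 6.00 and 5.23, Cyp2b13 and Sult3a1 at the top with rises of 9.45 and 9.03, and the muscle markers share the top of the plot with them.

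Of the male-biased list, 38 genes that textbooks describe as higher in male liver, 37 were tested and 30 fell, against 1.57% of all tested genes called lower. The remaining 7 did not pass, and none rose. The median log2 fold change of the 37 was -2.35, where that of all tested genes was 0.00. Without ORX_IH 1 and ORX_IH 2 the list kept 20 falls and a median of -1.96. The list was drawn up with earlier results of these data known and is not independent evidence of direction.

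The largest fall in the male-biased list was that of Cyp4a12a, the male-specific arachidonic acid omega-hydroxylase. Its level was 219, 98.7, 137, 165 and 121 CPM in Sham_IH 1 to 5 and 1.47, 1.73, 1.49, 4.96 and 1.62 CPM in ORX_IH 1 to 5. The groups were far apart, and ORX_IH 4 was the highest of the orchiectomized livers. The fall was 6.02 ± 0.56 on the log2 scale (SE; edgeR BH-adjusted p = 6.3e-06). Its neighbour Cyp4a12b fell by 5.09 ± 0.63 (edgeR BH-adjusted p = 9.0e-05). The other 4 tested members of the Cyp4a family did not pass.

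Major urinary proteins, small lipocalins that carry pheromones in male urine, made up much of the lost RNA. Of 21 tested protein-coding Mup genes 16 fell and none rose, with a median of -3.45, and 10 of the falls remained without ORX_IH 1 and ORX_IH 2. Of 11 tested Mup pseudogenes 6 fell, of which 1 remained. Among all tested genes 1.57% fell. Mup20, which encodes the pheromone darcin, stood at 7946, 2776, 5918, 7937 and 4088 CPM in Sham_IH and at 87.1, 123, 135.9, 334 and 84.0 CPM in ORX_IH. Even the lowest sham liver, Sham_IH 2, was above the highest orchiectomized liver, ORX_IH 4. The fall was 5.23 ± 0.47 (edgeR BH-adjusted p = 4.9e-06).

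Mup7 reached 8561, 3511, 10932, 9308 and 11791 CPM in Sham_IH and 66.0, 105, 15.3, 458 and 43.6 CPM in ORX_IH, a fall of 6.00 ± 0.90 (edgeR BH-adjusted p = 0.00069). Again Sham_IH 2 was lowest among shams and ORX_IH 4 highest among orchiectomized livers. Mup1, Mup8, Mup9, Mup11, Mup12, Mup14 and Mup15 fell by between 4.12 and 5.68. Mup3 and Mup22 fell less, by 1.53 and 1.83, and kept 2077 ± 749 and 3493 ± 1209 CPM (SD, n = 5) in ORX_IH. Both lost their call without ORX_IH 1 and ORX_IH 2, with adjusted p of 0.080 for each in edgeR and falls of 1.56 and 1.88. Together the Mup genes took 4.25 ± 0.903% of counts in Sham_IH and 0.751 ± 0.254% in ORX_IH (SD, n = 5), with an exact two-sided permutation p of 0.00794, the smallest that 5 against 5 allow (0.0238 after BH adjustment over 3 such tests, the other 2 of muscle marker sums).

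Many of these copies share most of their sequence, and for those the split of reads is uncertain. In an older GENCODE annotation of GRCm38, 9.98% of the 31-base words of the Mup7 transcripts occur in no other gene. The share was 35.5% for Mup20, 29.8% for Mup1, 4.88% for Mup13 and 0% for Mup15, Mup19 and Mup22. Mup3 and Mup21 were more distinct, with 69.9 and 66.2% of their words in no other gene. Of the 31-base words of Cyp4a12a 37.8% are its own, and 62.2% are shared with Cyp4a12b. The summed Mup share of counts covers 22 Mup genes and does not depend on how reads are split among them, and the values of single Mup genes do. Pseudogenes are left out of the sum, so reads split between them and the Mup genes can change it. Of the words of Mup20 51.2% are shared with Mup-ps19. Of the words of Elovl3 100% are its own.

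Elovl3, an elongase of long-chain fatty acids, fell from 99.4, 70.4, 80.4, 133.99 and 72.3 CPM to 2.41, 2.50, 2.69, 7.15 and 3.62 CPM. The groups did not overlap, and ORX_IH 4 was the highest of its group. The fall was 4.63 ± 0.48 (edgeR BH-adjusted p = 1.4e-05). Hsd3b5, a male-specific member of the 3-beta-hydroxysteroid dehydrogenases that inactivates androgens, stood at 216, 96.2, 137, 246 and 163 CPM in Sham_IH and 1.77, 11.6, 8.49, 27.7 and 6.82 CPM in ORX_IH. Its fall was 3.92 ± 0.56 (edgeR BH-adjusted p = 0.00046). Cyp2d9, a steroid 16-alpha-hydroxylase, fell less steeply, from 1168, 889, 1149, 1098 and 876 CPM to 117, 231, 167, 468 and 163 CPM, which is a fall of 2.18 ± 0.33 (edgeR BH-adjusted p = 0.00083).

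Of the female-biased list, 37 of 40 genes were tested and 27 rose, against 1.31% of all tested genes called higher. None fell, 10 did not pass, and the median log2 fold change was 2.07. Without ORX_IH 1 and ORX_IH 2, 19 rose and the median was 2.08. This list, too, was drawn up with earlier results known.

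The steepest rises began near the detection floor. Cyp2b13, a cytochrome P450 of female liver, was listed at 0, 0.0186, 0, 0.124 and 0.160 CPM in Sham_IH and at 39.9, 49.4, 58.6, 46.8 and 68.8 CPM in ORX_IH. Its fitted rise of 9.45 ± 0.99 (edgeR BH-adjusted p = 1.5e-05) depends on the prior count, since the sham values lie around the floor, and limma-voom did not call it. Sult3a1, a sulfotransferase of amines and steroids, was at 0, 0.0931, 0.138, 0.0177 and 0.142 CPM in Sham_IH and at 45.4, 47.4, 59.7, 23.1 and 45.9 CPM in ORX_IH (9.03 ± 0.86, edgeR BH-adjusted p = 6.3e-06). Its neighbour Sult3a2 averaged 0.00355 CPM in Sham_IH and 0.756 ± 0.416 CPM (SD, n = 5) in ORX_IH.

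Slc22a26, an organic anion transporter, had the smallest p of all genes. It was at 0.180, 0.223, 0.193, 0.284 and 0.764 CPM in Sham_IH and at 77.1, 44.4, 80.7, 39.8 and 55.9 CPM in ORX_IH. Every orchiectomized liver was above every sham liver by a wide margin. The rise was 7.39 ± 0.37 (edgeR BH-adjusted p = 8.8e-10), and it passed under every alternative that was run. Cyp2a4, a testosterone 15-alpha-hydroxylase, went from 0.431, 0.428, 0.220, 0.373 and 1.33 CPM to 39.8, 39.9, 115.2, 115.8 and 77.05 CPM (7.04 ± 0.57, edgeR BH-adjusted p = 1.6e-06). Within ORX_IH it was lower in both muscle-rich libraries than in the other 3.

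Cyp2b9 reached the highest level of the 11 named genes with the largest rises. Its level was 1.87, 18.6, 0.413, 2.98 and 37.5 CPM in Sham_IH, a wide spread, and 409, 569, 575, 608 and 547 CPM in ORX_IH, a narrow one. The rise was 5.44 ± 0.81 (edgeR BH-adjusted p = 0.00059). Hamp2, a paralogue of the iron hormone hepcidin, rose from 2.80, 2.66, 2.81, 5.93 and 5.56 CPM to 59.9, 80.7, 21.2, 90.8 and 83.3 CPM (4.06 ± 0.41, edgeR BH-adjusted p = 1.3e-05). Hamp2 was the only one of 25 tested genes of the iron and haem list that passed, where 2.88% of all tested genes were called. That list does not hold Alas2, described below with the erythroid markers. Cyp2c69, Cyp2c40, Cyp2a22, Cyp3a44 and Slc22a27 rose by 4.38, 3.04, 3.74, 4.72 and 4.16, without overlap between groups. Cyp2c69 averaged 20.0 ± 11.7 CPM in Sham_IH and 415.5 ± 195 CPM (SD, n = 5) in ORX_IH.

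**Figure D2:**
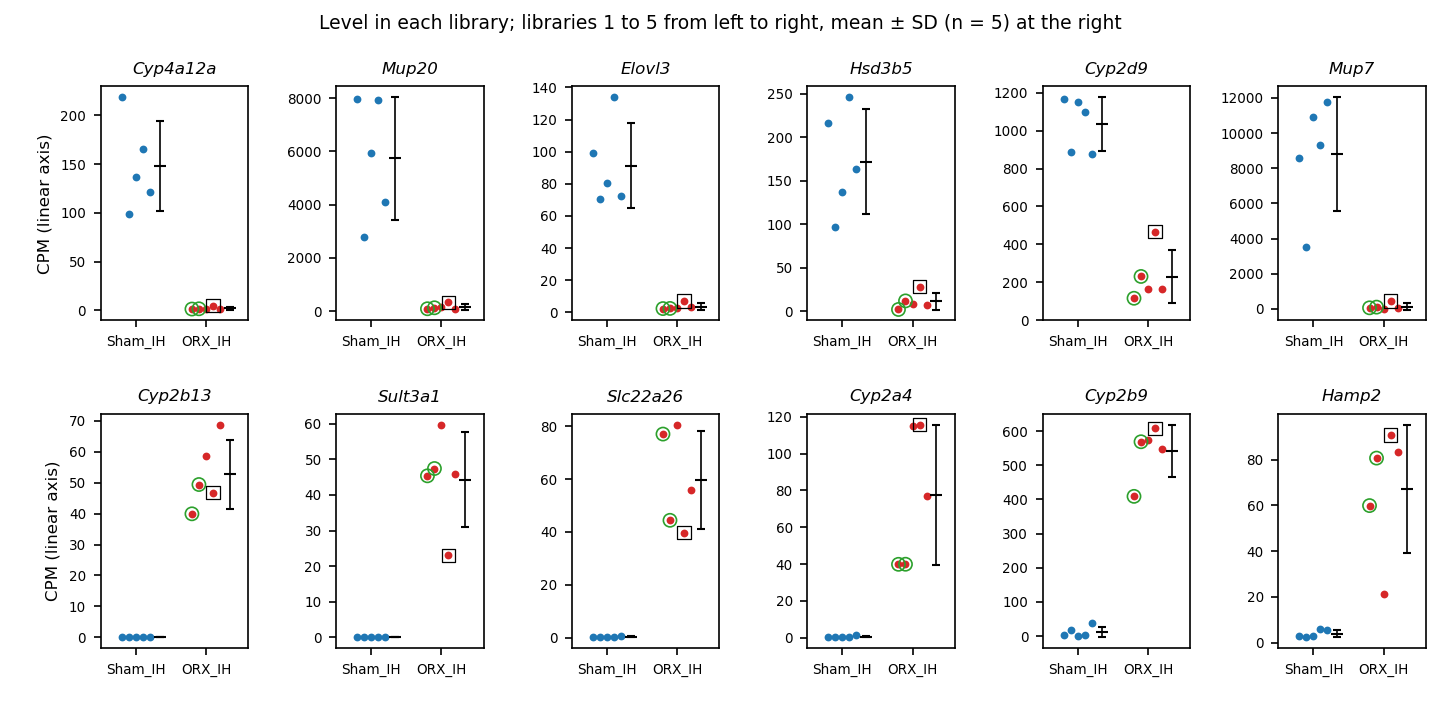
Level of 12 genes in each library, in CPM on linear axes, with Sham_IH in blue, ORX_IH in red and mean ± SD (n = 5) as black bars. Green rings mark ORX_IH 1 and ORX_IH 2 and black squares ORX_IH 4. In all 12 genes the groups do not overlap, and ORX_IH 4 is the highest orchiectomized liver in each of the 6 falling genes.

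Orchiectomized livers were not equally far from sham. ORX_IH 4 was the highest of its group in 26 of the 30 called male-biased genes. Its median position over the 37 tested male-biased genes was -1.15 on the log2 scale relative to the Sham_IH mean, whereas the other 4 lay between -2.58 and -1.90. In the female-biased genes it did not stand apart in the same way, being lowest of its group in 10 of 27 called genes, with a median position of 0.99 against 1.01 to 1.39 in the others. Among shams, Sham_IH 2 had the lowest Mup share, 2.70% of counts against 4.35 to 4.91%. The completeness of the operation in each mouse is not given in the labels, and its part was not tested.

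Of 34 tested genes of androgen, growth hormone and STAT5 signalling, which links testosterone to the liver, 3 rose, 2 fell and 29 did not pass, where 2.88% of all tested genes were called. The median was 0.13, and without ORX_IH 1 and ORX_IH 2 none of the 34 passed in edgeR. Bcl6, a male-biased repressor that competes with STAT5 for its sites, was at 39.6, 76.0, 101, 110 and 35.5 CPM in Sham_IH and at 8.52, 9.15, 9.42, 9.75 and 9.70 CPM in ORX_IH. The orchiectomized livers were tightly grouped below all shams (a fall of 2.96 ± 0.56, edgeR BH-adjusted p = 0.0059). Without ORX_IH 1 and ORX_IH 2 the fall was 2.91 with an edgeR BH-adjusted p of 0.078, so the call was lost while the size was kept.

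Cux2, a female-biased repressor of male genes, averaged 7.37 ± 2.70 CPM in Sham_IH and 22.7 ± 11.1 CPM (SD, n = 5) in ORX_IH, where ORX_IH 4 at 8.37 CPM lay inside the sham range. Its rise was 1.62 ± 0.31 (edgeR BH-adjusted p = 0.0068), and 1.42 with an adjusted p of 0.077 without ORX_IH 1 and ORX_IH 2. Prlr, the prolactin receptor, was at 260, 192, 207, 221 and 290 CPM in Sham_IH and at 398, 429, 428, 275 and 419 CPM in ORX_IH. All but ORX_IH 4 were above the sham livers (0.74 ± 0.13, edgeR BH-adjusted p = 0.0044), and the adjusted p was 0.056 without ORX_IH 1 and ORX_IH 2.

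STAT5 binds the letters TTCNNNGAA, which read the same on both strands. In RefSeq promoters of GRCm38.p6, the 250 bases before each start held this motif in 8.13% of 27025 genes. Among tested genes with a promoter entry the share was 7.50%, among 159 that rose 8.81% and among 177 that fell 9.04%. Of 37 named genes with an entry, drawn from the largest changes, the families and the sex-biased lists, 5 held it. Their stretches, with the motif in capitals and 20 bases on each side, are shown because these genes move with orchiectomy and carry the letters close to a start. A match is a description of sequence and not a bound site.
Slc22a26, chr19:7802780-7802828, minus strand: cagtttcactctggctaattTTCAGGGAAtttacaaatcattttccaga
Sult3a1, chr10:33857593-33857641, plus strand: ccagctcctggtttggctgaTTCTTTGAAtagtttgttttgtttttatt
Hamp2, chr7:30924247-30924295, minus strand: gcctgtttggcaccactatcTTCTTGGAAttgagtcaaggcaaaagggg
Prlr, chr15:10223776-10223824, plus strand: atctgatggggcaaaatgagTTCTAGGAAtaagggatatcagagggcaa
Bcl6, chr16:23988942-23988990, minus strand: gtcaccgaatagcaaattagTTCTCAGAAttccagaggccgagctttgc
Bcl6, chr16:23981343-23981391, minus strand: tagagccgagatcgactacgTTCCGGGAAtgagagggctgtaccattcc
The first 4 belong to genes that rose and the last, Bcl6, to one that fell. Bcl6 has several annotated starts and held 4 matches, of which 2 are shown.

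Some called genes sat beside one another. In the RefSeq gene order of GRCm38.p6, 84 of 443 called genes with an entry (19.0%) had an adjacent tested gene called in the same direction. Of all tested genes 1.31% rose and 1.57% fell. The share of all tested genes beside a called gene was not computed. Runs of at least 3 such neighbours numbered 9. The longest was the 8 falling genes Mup11, Mup-ps7, Mup12, Mup-ps8, Mup22, Mup13, Mup14 and Mup15. Cyp2b10, Cyp2b13 and Cyp2b9 lay in a rising run of 5 genes. Of these, Cyp2b10 lost its call without ORX_IH 1 and ORX_IH 2 (2.40, edgeR BH-adjusted p = 0.072). So did Mup-ps7, Mup-ps8, Mup13 and Mup22 of the longest run, with adjusted p of 0.072, 0.087, 0.17 and 0.080. Slc22a26 and Slc22a27 lay in a rising run of 3. Near-identical neighbours can share reads, as described for the Mup genes.

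Enzymes that handle steroids were among the genes that fell. Of 33 tested genes of steroid hormone metabolism 8 fell and none rose, with a median of -0.17, where 1.57% of all tested genes fell. Cyp7b1, the oxysterol and androgen 7-alpha-hydroxylase, stood at 345, 190, 292, 370 and 222 CPM in Sham_IH and at 41.7, 73.0, 68.6, 123 and 48.7 CPM in ORX_IH, without overlap (a fall of 2.00 ± 0.27, edgeR BH-adjusted p = 0.00021). Ugt2b5, a glucuronosyltransferase, fell by 0.59 ± 0.10 from a high level of 832 ± 52.2 CPM (SD, n = 5). With Hsd3b5 these 2 genes also passed without ORX_IH 1 and ORX_IH 2, where 3 of the 8 falls remained.

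Bile acid genes fell in 4 of 25 tested members, against 1.57% of all tested genes, and rose in none, with a median of -0.14. Cyp7b1, which also acts in the acidic route of bile acid synthesis, is one of them. Scp2, the sterol carrier protein whose peroxisomal form cleaves the bile acid side chain, went from 4160, 4011, 4190, 4786 and 3791 CPM to 2426, 2750, 2938, 2825 and 2868 CPM. The change was modest but the groups were well apart (a fall of 0.60 ± 0.09, edgeR BH-adjusted p = 0.00090). These 2 falls remained without ORX_IH 1 and ORX_IH 2.

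Transporters and conjugating enzymes moved in both directions. Among 26 tested organic ion transporters 6 rose and 4 fell, where 1.31% of all tested genes rose and 1.57% fell. The list had 6 rises and 1 fall without ORX_IH 1 and ORX_IH 2. Slco1a4, a female-biased uptake carrier, rose from 95.6, 125, 112, 92.9 and 107 CPM to 191, 258, 192, 280 and 237 CPM (1.121 ± 0.21, edgeR BH-adjusted p = 0.0047). Abcg2, an efflux pump, fell by 0.67 ± 0.11 (edgeR BH-adjusted p = 0.0018). Of 14 sulfotransferases 3 rose, Sult3a1 and Sult3a2 among them, and 1 fell, against the same shares of all genes. When ORX_IH 1 and ORX_IH 2 were left out, 3 rose and none fell.

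Of 22 glutathione transferases 3 rose and 2 fell, where 1.31% of all tested genes rose and 1.57% fell. Leaving out ORX_IH 1 and ORX_IH 2 left 1 rise and 2 falls. Gstp1, a male-biased conjugating enzyme, was at 2033, 1045, 1759, 1646 and 1218 CPM in Sham_IH and at 199, 317, 218, 485 and 293 CPM in ORX_IH, again highest in ORX_IH 4 (a fall of 2.35 ± 0.26, edgeR BH-adjusted p = 3.0e-05). Gstp2 fell by 1.78 ± 0.20 (edgeR BH-adjusted p = 2.6e-05), and 54.8% of its 31-base words are shared with Gstp1. Gstp3, with 99.5% of its words its own, went the other way, from 6.80 ± 0.803 to 11.6 ± 2.68 CPM (SD, n = 5; a rise of 0.78 ± 0.16, edgeR BH-adjusted p = 0.011). Of the flavin-containing monooxygenases, Fmo2 rose by 1.58 ± 0.29 (edgeR BH-adjusted p = 0.0051), with an adjusted p of 0.057 without ORX_IH 1 and ORX_IH 2. Fmo1, Fmo4 and Fmo5 did not pass, at 0.50 ± 0.14, 0.50 ± 0.14 and -0.04 ± 0.14. Fmo6 had 16 counts over the 10 libraries and Fmo9 had 0, and neither was tested.

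In other lists 1 to 3 genes passed. C6, a component of the membrane attack complex, was at 301, 186, 246, 283 and 219 CPM in Sham_IH and at 39.7, 43.2, 24.6, 70.5 and 36.7 CPM in ORX_IH. Of 37 tested complement and coagulation genes 3 fell, against 1.57% of all tested genes, and the fall of C6, 2.52 ± 0.34, was the largest (edgeR BH-adjusted p = 0.00027). It alone of the 3 passed without ORX_IH 1 and ORX_IH 2.

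Alas2, the haem synthesis enzyme of red cell precursors, fell from 75.7, 37.4, 62.5, 69.4 and 60.1 CPM to 19.1, 16.7, 13.8, 21.5 and 17.6 CPM (a fall of 1.78 ± 0.17, edgeR BH-adjusted p = 6.3e-06). The other 7 tested erythroid markers did not pass, and the erythroid markers summed to 347 to 743 CPM in Sham_IH and 286 to 798.5 CPM in ORX_IH, so the summed level overlapped between groups. Vldlr, a receptor for triglyceride-rich lipoproteins, rose from 5.32, 7.31, 5.03, 4.21 and 6.396 CPM to 18.6, 16.7, 27.0, 13.4 and 20.0 CPM (1.76 ± 0.22, edgeR BH-adjusted p = 9.5e-05). It was the only one of 22 tested lipid droplet genes that passed, where 2.88% of all tested genes were called. Ccnd1, cyclin D1, rose from 14.1, 12.3, 8.17, 16.4 and 12.6 CPM to 57.9, 29.8, 30.3, 43.2 and 43.1 CPM (1.68 ± 0.30, edgeR BH-adjusted p = 0.0035). The other 29 tested cell cycle genes did not pass, against the same share of all genes called.

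Several programmes showed no gene past the threshold. None of 30 tested hypoxia-inducible factor targets was called, with log2 fold changes between -0.68 and 1.49. The 20 clock genes, 26 genes of cholesterol synthesis and uptake, 23 nuclear receptors, 30 genes of protein folding, 38 of the respiratory chain, 14 periportal and 15 pericentral genes likewise had no call by edgeR. Of all tested genes 2.88% were called, and at that share lists this short would hold few calls or none. Of the cholesterol genes 23 were negative and 3 positive, and of the respiratory chain genes 28 were negative and 10 positive. Of all 16164 tested genes 8236 were negative. The median of the cholesterol genes was -0.14, and 0.0054 without ORX_IH 1 and ORX_IH 2. For the respiratory chain genes it was -0.067, and -0.028 without ORX_IH 1 and ORX_IH 2. Both groups were exposed to intermittent hypoxia, so these values compare operations and not exposures.

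Markers of other cells moved in part. Of 15 Kupffer cell and macrophage markers 14 were positive, with a median of 0.55, and none passed. Their sum was 357 to 433 CPM in Sham_IH and 465 to 652.5 CPM in ORX_IH, without overlap. In bulk tissue more cells of a type and more RNA per cell cannot be told apart. Of 18 lymphocyte markers 3 rose, against 1.31% of all tested genes. Cd79a, a component of the B cell receptor, was at 0.287, 0.596, 0.330, 0.390 and 0.409 CPM in Sham_IH and at 2.83, 1.24, 1.29, 0.784 and 1.15 CPM in ORX_IH (1.84 ± 0.31, edgeR BH-adjusted p = 0.0020). It was highest in ORX_IH 1 and still called without ORX_IH 1 and ORX_IH 2 (1.39, edgeR BH-adjusted p = 0.016), as was Ms4a1 (1.42, edgeR BH-adjusted p = 0.033). Ms4a1 was not called by limma-voom or with a muscle marker term in the fit. Cd79b, also called with all libraries, lost its call without both (0.98, edgeR BH-adjusted p = 0.21). The lymphocyte markers summed to 78.0 CPM in ORX_IH 1, against 9.54 to 20.0 CPM in the remaining libraries. Adipocyte markers summed to 84.2 CPM in ORX_IH 1, against 21.5 to 32.3 CPM. What sets ORX_IH 1 apart was not tested.

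**Figure D3:**
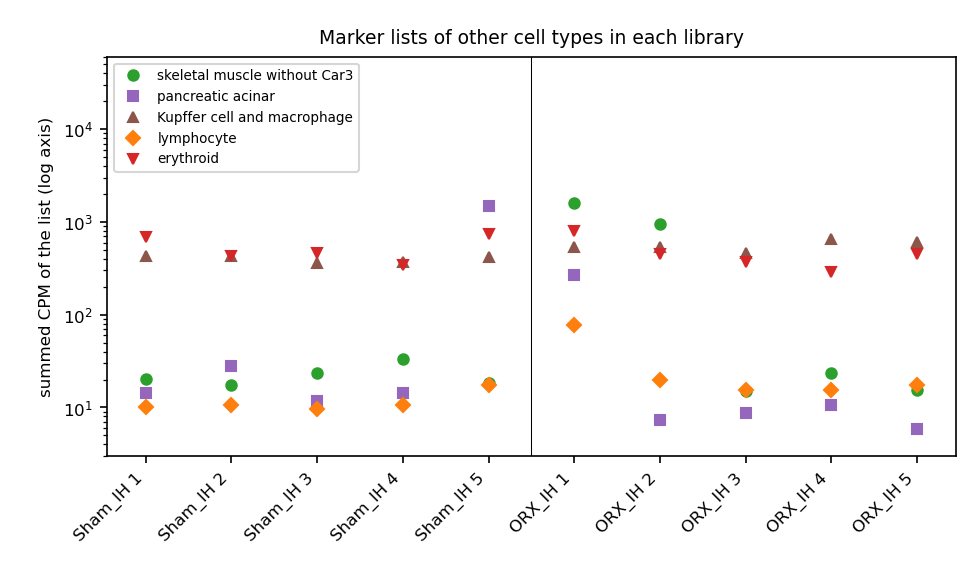
Summed level of 5 marker lists in each of the 10 libraries, in CPM on a log axis. Skeletal muscle markers without Car3 reach 1604 and 952 CPM in ORX_IH 1 and ORX_IH 2 and at most 32.9 CPM elsewhere, pancreatic markers peak in Sham_IH 5 and ORX_IH 1, and the Kupffer cell markers are higher in every ORX_IH library.

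Muscle transcripts produced the second group of large rises. Of 29 tested skeletal muscle markers 18 passed with all libraries, and without ORX_IH 1 and ORX_IH 2 none of 27 did. The shares of all tested genes called were 2.88% and 0.811%. Myh1, a fast myosin heavy chain, was at 229 CPM in ORX_IH 1 and 131 CPM in ORX_IH 2 and at most 0.108 CPM in the other 8 libraries. Acta1, Atp2a1, Ttn, Myh2 and Tnnt3, which encode the actin, calcium pump, titin, myosin and troponin of the sarcomere and its membrane, followed the same pattern. Of 28 markers other than Car3, 27 were higher in both libraries than in any of the other 8, with a median ratio of 1.65 between ORX_IH 1 and ORX_IH 2. The calls of the muscle markers rest on these 2 libraries.

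The muscle-rich libraries touched other calls too. Of the 211 genes that rose, 62 (29.4%) had ORX_IH 1 and ORX_IH 2 as the highest 2 of the 10 libraries, against 5.60% of all tested genes. Of the 254 that fell, 56 (22.0%) had them as the lowest 2, against 5.53%. Called genes are selected for a difference between the groups, so a share above that of all genes can follow from this selection alone. The 62 rises include the 18 called muscle markers. In 24 of the 211 rises the other 3 orchiectomized livers all lay at or under the highest sham liver. Pdk4, a kinase that limits pyruvate oxidation in muscle and liver, was at 73.4 and 34.96 CPM in ORX_IH 1 and ORX_IH 2 and at 7.18, 7.54 and 9.13 CPM in ORX_IH 3 to 5, against 3.38, 6.14, 6.90, 4.74 and 5.79 CPM in Sham_IH. Its rise of 2.29 ± 0.53 (edgeR BH-adjusted p = 0.025) was 0.55 with an adjusted p of 0.44 without both libraries. Leaving out any single one of ORX_IH 1, ORX_IH 2, Sham_IH 1, Sham_IH 3, Sham_IH 4 or Sham_IH 5 also ended its call, with rises of 1.44, 2.17, 2.17, 2.39, 2.27 and 2.32.

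Without ORX_IH 1 and ORX_IH 2, with 3 orchiectomized livers left, 132 genes were called (0.811%), 72 higher and 60 lower, and all 132 were among the 465. Of the 459 called genes that still had a value 446 kept their direction. Single libraries also moved the count by over 1.5 times: it was 272 without Sham_IH 1, 264 without Sham_IH 3, 258 without Sham_IH 4, 306 without Sham_IH 5, 224 without ORX_IH 1, 260 without ORX_IH 2 and 704 without ORX_Nx 5. 

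**Figure D4:**
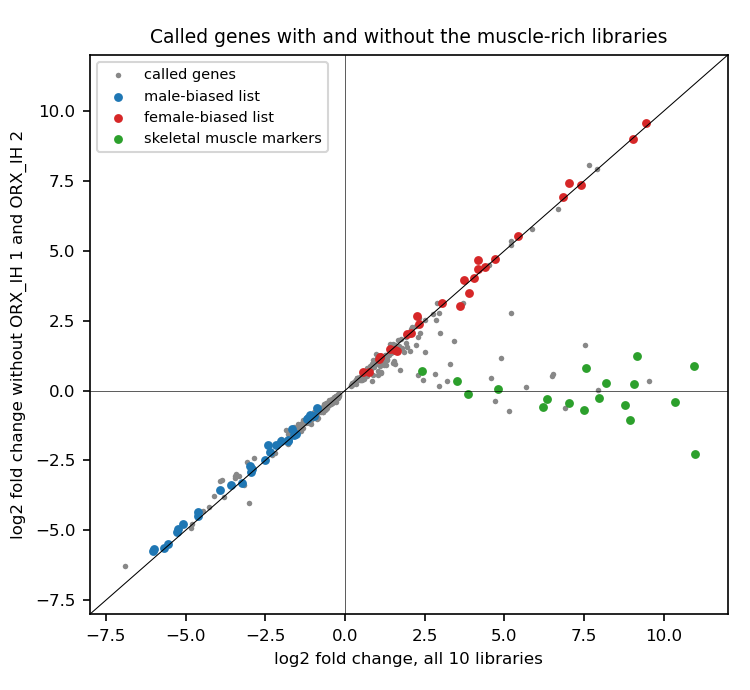
Log2 fold change of the 465 called genes with all 10 libraries (x axis) and without ORX_IH 1 and ORX_IH 2 (y axis), with the line of equality. Male-biased genes (blue) and female-biased genes (red) lie along the line, and the called skeletal muscle markers (green) drop from rises of at least 2.41 to values between -2.28 and 1.23.

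The same operation in normal air gave many more calls. ORX_Nx differed from Sham_Nx, 5 livers against 4, in 2319 genes (14.3%). The 2 comparisons share no library. Of the 465 genes called under intermittent hypoxia 344 (74.0%) were also called in normoxia, which is 14.8% of the normoxia calls, and all 344 changed in the same direction. Of the 2319 normoxia calls 95.6% had the same direction under hypoxia, where 72.5% of all tested genes did. Across the 16164 genes the log2 fold changes of both comparisons had a Pearson r of 0.35, and of 0.86 over the genes called in normoxia. Genes are not independent replicates, and no p is given.

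The largest normoxia changes were mostly smaller under hypoxia, as 172 of the 182 normoxia calls of at least 4-fold were. Of the 130 hypoxia calls of at least 4-fold 62 were smaller than in normoxia. Each count selects genes by a large value in 1 of the comparisons and is a description. Mup7 fell by 9.35 ± 1.05 in normoxia, 3.35 more than under hypoxia. Cyp2b9 rose by 8.58 ± 1.05, against 5.44 under hypoxia. Bcl6 was at -0.33 ± 0.54 in normoxia (edgeR BH-adjusted p = 0.73), against -2.96 under hypoxia.

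The test of the difference itself called none of these. By edgeR no gene passed the interaction of operation and exposure (0%), and 1025 (6.34%) had an unadjusted p under 0.05. DESeq2 called 63 genes, and limma-voom and limma-trend, the latter on the deposited log2 values, called none. The interaction had an edgeR BH-adjusted p of 0.66 for Mup7, 0.68 for Cyp2b9, 0.54 for Bcl6 and 0.29 for Slco1a4, which rose by 2.30 ± 0.23 in normoxia. The smallest edgeR BH-adjusted p of the interaction was 0.22. Genes at that value included the skeletal muscle markers Myl1, Tnnt3, Acta1, Atp2a1 and Myh2, beside Scpep1, Kng2, Spp1, Bpgm and Mup14. The fall of Mup14 was 7.26 ± 0.61 in normoxia and 4.44 ± 0.53 under hypoxia, with an interaction of 2.81 ± 0.67. The interaction of Acta1 was 13.8 ± 2.90, with muscle RNA in ORX_IH 1, ORX_IH 2 and Sham_Nx. A p that misses the threshold does not show that the effects were equal: the interaction of Bcl6 was -2.63 ± 0.78.

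**Figure D5:**
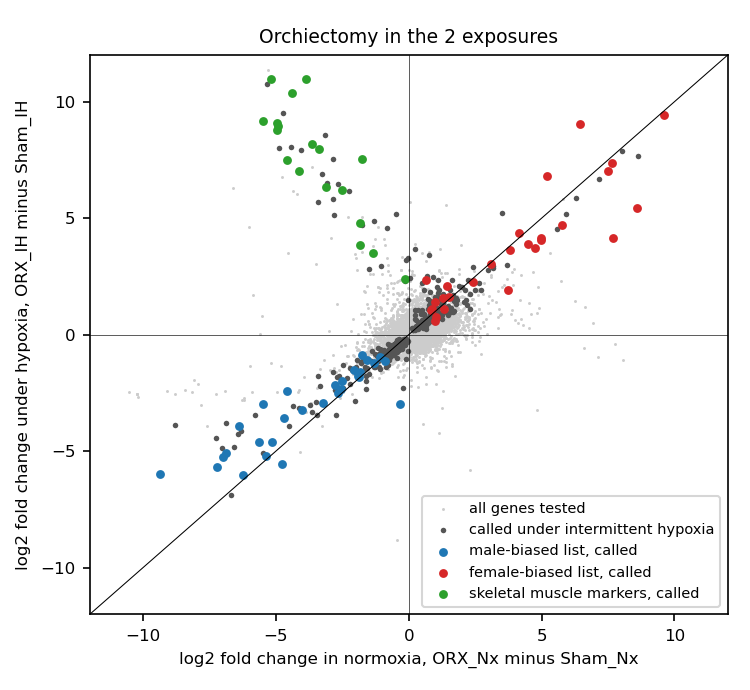
Log2 fold change of orchiectomy under intermittent hypoxia (y axis) against that in normoxia (x axis), with the line of equality, for all tested genes. Called male-biased genes (blue) lie at the lower left and female-biased genes (red) at the upper right near the line. The called skeletal muscle markers (green) lie at the upper left, high in 2 ORX_IH libraries and negative in normoxia. Their normoxia values go with muscle RNA in Sham_Nx, where Acta1 averaged 10.9 CPM against 0.415 CPM in ORX_Nx, with overlap between the libraries.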

How the data were processed

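Liver RNA of 20 male mice is described in the labels, and the tables held 19 libraries. Sham_Nx replicate 1 was not analysed here. Total RNA was poly(A)-selected and made into directional libraries, per the labels' protocols. Reads were processed with bcl2fastq 2.20, fastp 0.23.2, FastQC 0.11.9, MultiQC 1.12 and kallisto 0.46.1 with genome build GRCm39, per the submitters' processing notes. The authors deposited estimated counts (expected counts per gene) as kallisto makes them, and since 27.5% were fractional they were rounded. A second table that the authors deposited holds log2 expression values, and for each gene an F-statistic (a score), its p-value and a q-value. Its name in the labels refers to TMM, and no further detail of the normalization is given there. No pseudocount was added to its log2 values.

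Genes were filtered with filterByExpr (minimum count 10), which kept 16164, and libraries were scaled by TMM. EdgeR 4.0.16 in R 4.3.3 fitted its quasi-likelihood model to all 4 groups, and p-values of each contrast were adjusted by Benjamini-Hochberg over all genes, with a threshold of 0.05. The standard error is the absolute log2 fold change divided by the square root of F. Alternatives used DESeq2 1.42.0, limma 3.58.1, other scalings and filters, a replicate block, a muscle term and fewer libraries. The fit was tested on simulated data. Gene lists, members and rules were chosen with earlier results of these data known. Named genes were drawn from the 12 largest rises and falls (called, at least 5 CPM in the higher group, no overlap, and still called without ORX_IH 1 and ORX_IH 2), up to 4 called members of each list, the 6 highest muscle markers in ORX_IH 1, the flavin-containing monooxygenases and called members of gene families. Not every gene that this rule allows is named, and 1 of the 12 largest rises is not reported here. Replicate libraries differed by a chi-square of 20.7 to 166 per degree of freedom, so none was a copy. The labels number the mice within groups, and p-values measure the spread between these mice.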

Additional observations from a re-analysis of the deposited data

Results flagged for a closer look

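In 54 sets of 5 libraries, 11 held a library whose gap to its nearest neighbour was over 0.71 of the range (Dixon's 95% value for 5). The sets come from the same libraries and many of their genes move together, so the count is a description only. ORX_IH 4 stood apart in 5 genes, with Mup20 at 334, Mup7 at 458, Cyp4a12a at 4.96 and Elovl3 at 7.15 CPM, each the highest of ORX_IH, and Prlr at 275 CPM, the lowest. Sham_IH 5 was the highest sham liver for Cyp2a4, at 1.33 CPM, and Slc22a26, at 0.764 CPM. It also had the highest pancreatic enzyme sum, 1501 CPM, and ORX_IH 1 had the highest of its group, 266 CPM. ORX_IH 1 was highest in Cd79a, at 2.83 CPM. Sham_IH 2 had the lowest Mup share of counts, 2.70%. What sets these libraries apart was not tested.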

How the results depend on the processing

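Of 91 named genes called, 40 passed under every alternative and 52 without ORX_IH 1 and ORX_IH 2. The 465 calls (1.45% of tested genes called and at least 2-fold) became 971 without scaling factors and 867 (2.28%) with DESeq2, which also called 63 interactions. Limma-voom gave 0.959% at least 2-fold. A muscle marker term gave 192 (0.755%), leaving out ORX_IH 1 and ORX_IH 2 gave 132 (0.578%), and leaving out the 3 libraries with pancreatic RNA (ORX_IH 1, Sham_IH 5 and Sham_Nx 5), chosen after seeing the data, gave 158 (0.697%). Leaving out 1 library gave 224 to 704 calls and 0.861 to 1.99% at least 2-fold, with 0 interactions each time. The muscle term and the fit without ORX_IH 1 and ORX_IH 2 reversed Atp2a1 (-0.81 and -0.69), Acta1 (-0.62 and -0.53), Ttn (-0.42 and -0.27) and Myh1 (-0.0060 and -0.40). Fmo5, not called, turned positive without scaling (0.080), with the muscle term (0.026) and without ORX_IH 1 and ORX_IH 2 (0.017), and took values between -0.21 and 0.050 when 1 library was left out. The cause of these differences was not tested. Leaving out ORX_IH 1 and ORX_IH 2 takes away muscle RNA and mice at once, and their parts cannot be told apart. Correlations of same-numbered deviations were -0.073, 0.044, 0.011, 0.39 and -0.12, and 1 of 5 numbers correlated best with its own. So few correlations cannot exclude that libraries of the same number were handled together. Replicate 5 of each group carries a library number above 16. With library numbers 1 to 16 only, 342 genes were called. With the replicate block 346 genes were called. The floor of 3 counts was 0.102 CPM in the shallowest library, Sham_IH 1, and levels near it are uncertain. The smallest detectable difference between groups was not computed.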
